A study of Mus musculus with 6 samples.

Results

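RNA of 34 endothelial and mural cell genes was measured in the medial prefrontal cortex (mPFC) of mice trained with morphine or with saline. The genes were chosen by symbol, as 24 markers of brain endothelial cells and 10 markers of mural cells, the pericytes and smooth muscle cells around vessels. All 34 were among the 31763 genes of the deposited table, and all 34 were among the 18970 genes tested. The 3 morphine samples came from male C57BL/6J mice of 8 to 10 weeks that received morphine (10 mg/kg, i.p.) in conditioned place preference training, a task in which a chamber is paired with a drug. The 3 saline samples came from male C57BL/6J mice of the same age that received saline (10 ml/kg, i.p.) in the same training. Both groups then spent about a week in the home cage without injections, and the tissue was taken after a memory retrieval test. Each library was made from bulk tissue after removal of ribosomal RNA. In bulk tissue, fewer cells of a type and less RNA per cell cannot be told apart.

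Brain endothelial cells line the capillaries and form the blood-brain barrier, in which tight junctions seal the gap between cells and transporters carry nutrients in and drugs out. Pericytes sit on the capillary wall within the basement membrane and are recruited by platelet-derived growth factor from the endothelium. Smooth muscle cells wrap arteries and arterioles and set vessel diameter through contractile proteins. Morphine itself is a substrate of P-glycoprotein, the efflux pump that Abcb1a encodes in mouse brain endothelium.

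The 6 libraries held 17984153 to 23529592 counts assigned to genes. In saline replicate 1, 17 of 20 olfactory bulb markers were more than 2 times as high as in the next-highest library, against 0 of 20 in each other library. The summed FPKM (fragments scaled by gene length and library size) of these 20 markers was 84.5, 76.8 and 80.2 in morphine libraries, against 237, 72.6 and 75.8 in saline libraries. Where a sign or a call below turns with saline replicate 1, the value without it is given too. No gene of the 18970 passed an adjusted p of 0.05 in edgeR's quasi-likelihood test with Benjamini-Hochberg adjustment, and 525 higher and 940 lower in morphine had an unadjusted p under 0.05. With DESeq2 as the test, 16 genes passed the adjusted threshold and 974 the unadjusted one. Without saline replicate 1, edgeR called 186 genes at an adjusted p under 0.05.

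The vascular genes were close to even between the groups. Of the 34 genes, 0 passed an adjusted p of 0.05 in edgeR's quasi-likelihood test, beside 0% of all genes tested, and their lowest adjusted p was 0.62. At an unadjusted p under 0.05, 1 of 34 was higher in morphine, beside 2.77% of all genes tested, and 0 of 34 were lower, beside 4.96%. The 1 gene was Rgs5, a pericyte gene. DESeq2 called 0 of the 34 genes, both at an adjusted and at an unadjusted p under 0.05. In 3 of the 34 genes (Rgs5, Ly6a and Tek) every morphine library lay above every saline library, beside 5.98% of all genes tested. In 0 of the 34 genes every morphine library lay below every saline library, beside 7.32%. The unadjusted count without saline replicate 1 was 2 of 34 higher (Vwf and Tagln), and neither passed an adjusted p of 0.05 in that edgeR fit. The shares of 2.77% and 4.96% belong to the fit with all libraries, and the share of all genes without saline replicate 1 is not given. Without that library, a count added after seeing the data, 6 of 34 genes had every morphine library above both remaining saline libraries, beside 12.7% of all genes tested, and 0 had every morphine library below, beside 14.8%. Kdr, Tagln and Vwf were the 3 genes that joined Rgs5, Ly6a and Tek.

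Fitted differences were small for most of the vascular genes. The log2 fold change of morphine over saline lay within 0.25 of 0 in 30 of 34 genes. It was positive in 24 genes and negative in 10, against 9002 positive of 18970 over all genes tested. The median log2 fold change was 0.08 over the 24 endothelial genes and -0.03 over the 10 mural genes, beside -0.01 over all genes tested. Of the endothelial genes 20 of 24 had a positive value, and of the mural genes 4 of 10. Without morphine replicate 2 the endothelial count was 14 of 24 and its median 0.03, and without saline replicate 1 the mural count was 6 of 10 and its median 0.04. The 95% interval held 0 in 33 of 34 genes. It lay within a 2-fold difference either way in 32 genes and within 1.5-fold in 26, so larger differences in these genes fell outside the intervals of this test.

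**Figure D1:**
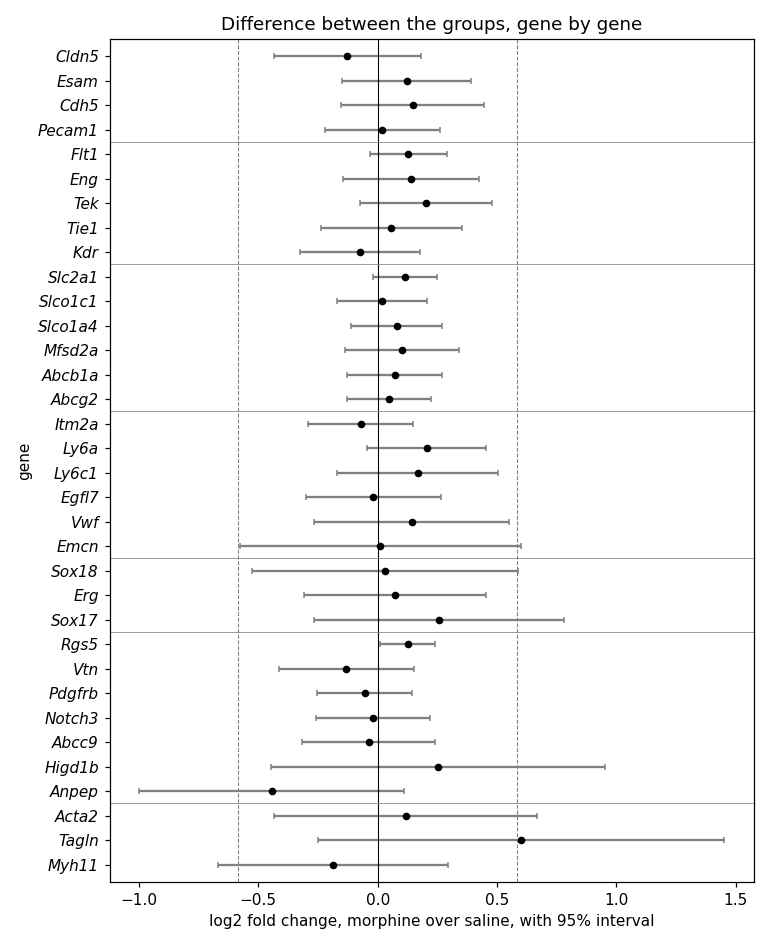
Fitted log2 fold change of morphine over saline (horizontal axis) for each of the 34 vascular genes, grouped by role, as points with 95% intervals from edgeR's quasi-likelihood test on 3 morphine and 3 saline libraries. Of the 34 intervals, 33 hold 0, and the interval of Rgs5 runs from 0.01 to 0.24.

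The levels per length differed widely between the genes. On the FPKM scale Rgs5 and Slc2a1 had the highest levels of the 34, and Emcn the lowest. Rgs5 averaged 21.5 ± 1.06 FPKM in morphine and 19.97 ± 0.432 FPKM in saline libraries (SD, n = 3 each). Slc2a1 averaged 19.8 ± 0.622 FPKM in morphine and 18.5 ± 0.893 FPKM in saline libraries (SD, n = 3 each). Emcn, which encodes the sialomucin endomucin of veins and capillaries, averaged 0.436 ± 0.104 FPKM in morphine and 0.434 ± 0.116 FPKM in saline libraries (SD, n = 3 each). At these levels 25 of the 34 genes had at least 100 counts in every library. Acta2, Sox18, Higd1b, Anpep, Tagln and Emcn had fewer than 50 counts in some library, and the lowest count of any gene in any library was 10, for Tagln.

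**Figure D2:**
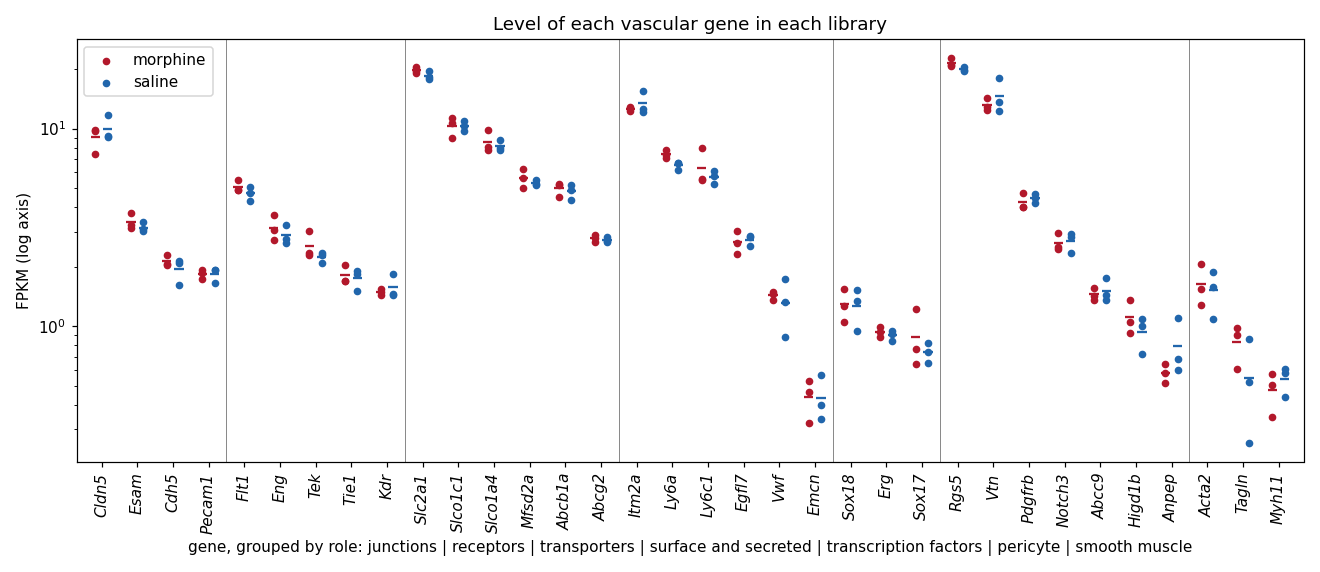
FPKM of each of the 34 vascular genes in each library on a log axis, with morphine and saline libraries as points in 2 colours. Levels run from Rgs5 at 21.5 FPKM in morphine and 19.97 in saline down to Emcn at 0.436 in morphine and 0.434 in saline, and the groups overlap for most genes.

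Rgs5 encodes a regulator of G protein signalling that marks brain pericytes. The gene lies on the plus strand at chr1:169655501-169695813 (GRCm38) and has 6 exon blocks. Its level was 95.8, 102.6 and 97.3 normalised CPM (counts scaled to library size, after TMM normalisation) in morphine libraries, against 88.8, 93.2 and 88.9 normalised CPM in saline libraries. The 3 morphine values all lay above the 3 saline values, and morphine replicate 2 was the highest library. With these values its log2 fold change was 0.13 (SE 0.052, 95% interval 0.01 to 0.24), with an unadjusted p of 0.035 and an adjusted p of 0.62 in edgeR's quasi-likelihood test. The unadjusted p was 0.10 without morphine replicate 2, 0.061 without morphine replicate 3, 0.0503 without saline replicate 1 and 0.089 without saline replicate 3. With all libraries kept it was 0.067 in DESeq2, 0.052 in edgeR with no filter on low counts, and 0.071 in limma on log2(FPKM + 0.1). In edgeR with other scaling the unadjusted p was 0.027 and 0.023, and 0.034 with 10 counts required in all 6 libraries. With the replicate number as a block it was 0.042, and without morphine replicate 1 also 0.042. The adjusted p in these edgeR fits was 0.61 to 0.98.

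Ly6a and Tek were the other genes without overlap between the groups. Ly6a, which encodes the surface protein Sca-1, stood at 8.68, 9.32 and 9.05 normalised CPM in morphine libraries, against 7.94, 7.45 and 8.07 normalised CPM in saline libraries. Its log2 fold change was 0.21 (SE 0.112, 95% interval -0.04 to 0.46), with an unadjusted p of 0.096 in edgeR's test. In limma on log2(FPKM + 0.1) its unadjusted p was 0.029 and its adjusted p 0.68. Ly6a was the 1 gene of the 34 with an unadjusted p under 0.05 there, and the share of all genes in limma is not given. Tek, which encodes the angiopoietin receptor Tie2, stood at 11.01, 14.1 and 11.2 normalised CPM in morphine libraries, against 10.8, 10.9 and 9.81 normalised CPM in saline libraries. For Tek a single library, morphine replicate 2, stood above the rest, and the other morphine values exceeded the highest saline value by little. Tek had a log2 fold change of 0.20 (SE 0.125, unadjusted p = 0.14 in edgeR's test) and 0.08 without morphine replicate 2.

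The promoter windows of Rgs5 and Tek are shown because their groups did not overlap, and that of Flt1 because it carries the ETS letters that were searched. Each runs from 250 bases before to 50 bases after the RefSeq start, on the strand of the gene in GRCm38.p6. Rgs5 is at chr1:169655251-169655550 on the plus strand, Tek at chr4:94739039-94739338 on the plus strand and Flt1 at chr5:147725962-147726261 on the minus strand. Capitals mark the letters ACAAT or ATTGT, the core bound by SOX factors, in Rgs5 and Tek, and AGGAAG, a core bound by ETS factors such as Erg, in Flt1.
Rgs5: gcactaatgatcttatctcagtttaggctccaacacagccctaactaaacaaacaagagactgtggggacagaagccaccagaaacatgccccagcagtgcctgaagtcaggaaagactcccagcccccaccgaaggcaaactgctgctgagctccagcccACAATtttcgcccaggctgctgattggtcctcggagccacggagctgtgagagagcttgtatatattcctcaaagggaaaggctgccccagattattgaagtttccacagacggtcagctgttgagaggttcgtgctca
Tek: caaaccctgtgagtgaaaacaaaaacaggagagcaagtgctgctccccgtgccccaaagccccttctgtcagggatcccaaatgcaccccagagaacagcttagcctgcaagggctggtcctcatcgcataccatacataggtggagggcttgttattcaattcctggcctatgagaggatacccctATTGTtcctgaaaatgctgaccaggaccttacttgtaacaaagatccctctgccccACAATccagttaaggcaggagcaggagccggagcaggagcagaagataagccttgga
Flt1: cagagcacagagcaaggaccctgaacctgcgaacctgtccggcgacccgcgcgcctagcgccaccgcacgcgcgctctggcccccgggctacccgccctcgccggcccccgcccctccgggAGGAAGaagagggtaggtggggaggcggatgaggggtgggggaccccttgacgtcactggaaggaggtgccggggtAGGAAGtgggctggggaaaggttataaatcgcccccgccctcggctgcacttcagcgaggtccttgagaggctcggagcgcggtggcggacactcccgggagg

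Promoter windows were used for 23 of the 34 genes, with 30 windows in all. Windows on chromosome 18, where Pdgfrb lies, were left out. No window was used for Higd1b, Ly6a, Sox17, Sox18, Pdgfrb, Esam, Myh11, Tagln, Cdh5, Vwf and Pecam1. Searched on both strands, AGGAAG or CTTCCT stood in 15 of the 30 windows (50%), beside 35.4% of the 32851 RefSeq windows outside chromosome 18. ACAAT or ATTGT stood in 6 of the 30 windows (20%), beside 31% of those 32851 windows. The ETS letters were in at least 1 window of 12 of the 23 genes (Abcb1a, Abcg2, Egfl7, Emcn, Eng, Erg, Flt1, Itm2a, Ly6c1, Slco1a4, Slco1c1 and Tie1), and the SOX letters in 6 (Abcg2, Emcn, Erg, Rgs5, Slco1a4 and Tek). Neither motif contains the other, and some genes have more than 1 annotated start and window. The window of Abcb1a, at chr5:8566841-8567140, lies apart from its GENCODE start at chr5:8660077, so its ETS letters do not stand at that start.

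Among the junction and adhesion genes, 3 of 4 log2 fold changes were positive and 0 of 4 passed the test. The positive count was 2 of 4 without morphine replicate 3 or without saline replicate 3, and 4 of 4 without saline replicate 1. Cldn5, a single-exon gene at chr16:18776847-18778262 on the plus strand that encodes the main claudin of the brain tight junction, stood at 10.7, 13.9 and 14.0 normalised CPM in morphine libraries, against 16.3, 13.1 and 12.8 normalised CPM in saline libraries. The highest library was saline replicate 1 and the lowest morphine replicate 1, with the other 4 libraries between 12.8 and 14.0. Its log2 fold change was -0.13 (SE 0.139, 95% interval -0.43 to 0.18) and 0.00081 without saline replicate 1. Cdh5, which encodes the adherens junction protein VE-cadherin, stood at 8.79, 9.60 and 8.74 normalised CPM in morphine libraries, against 8.84, 8.82 and 6.79 normalised CPM in saline libraries. Saline replicate 3 alone stood below the others, and the groups overlapped. Pecam1, the adhesion molecule of endothelial cell contacts, had a log2 fold change of 0.02 (SE 0.109), and of -0.040 without saline replicate 3. Esam, another endothelial adhesion molecule, had one of 0.12 (SE 0.122), and of 0.027 without morphine replicate 3.

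Among the endothelial receptors, 4 of 5 log2 fold changes were positive, with a median of 0.13, and 0 of 5 passed the test. Without morphine replicate 2 this was 3 of 5 with a median of 0.034, and without saline replicate 1 it was 5 of 5 with a median of 0.12. Flt1, which encodes the VEGF receptor VEGFR1, stood at 66.6, 73.5 and 66.9 normalised CPM in morphine libraries, against 62.4, 68.7 and 58.2 normalised CPM in saline libraries. Saline replicate 2 lay above 2 of the 3 morphine values, so the groups overlapped. For Flt1 this gave a log2 fold change of 0.13 (SE 0.0724, unadjusted p = 0.11 in edgeR's test), and without saline replicate 2 the value was 0.19 with an unadjusted p of 0.025. Without morphine replicate 2 the value for Flt1 was 0.081 with an unadjusted p of 0.32 in the same test. Kdr, which encodes the signalling VEGF receptor VEGFR2, stood at 13.6, 13.7 and 13.2 normalised CPM in morphine libraries, against 16.3, 13.1 and 13.1 normalised CPM in saline libraries. Here 5 libraries lay close together and saline replicate 1 stood above them. Kdr had a log2 fold change of -0.07 (SE 0.113) with all libraries and 0.04 without saline replicate 1. Tie1, an orphan receptor of the Tie family, had a log2 fold change of 0.06 (SE 0.134), and of -0.022 without morphine replicate 2. Eng, a TGF-beta co-receptor, had one of 0.14 (SE 0.128), and of 0.034 without morphine replicate 2 and 0.23 without morphine replicate 3.

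The blood-brain barrier transporters had 6 of 6 positive log2 fold changes, with a median of 0.08, and 0 of 6 passed the test. Without morphine replicate 2 this was 4 of 6 with a median of 0.031, and without morphine replicate 3 or saline replicate 1 it was 5 of 6. Slc2a1, which encodes the glucose transporter GLUT1, stood at 69.6, 66.9 and 73.0 normalised CPM in morphine libraries, against 62.7, 62.7 and 68.3 normalised CPM in saline libraries. Saline replicate 3 lay between the morphine values and the other saline libraries lay below all of them. Its log2 fold change was 0.11 (SE 0.0607, 95% interval -0.02 to 0.25, unadjusted p = 0.090 in edgeR's test), and without saline replicate 3 it was 0.16 with an unadjusted p of 0.039. Without morphine replicate 1 the value for Slc2a1 was 0.12 with an unadjusted p of 0.15 in the same test. Abcb1a, the P-glycoprotein gene, stood at 28.8, 28.6 and 25.3 normalised CPM in morphine libraries, against 27.9, 26.8 and 23.8 normalised CPM in saline libraries. Both groups covered nearly the same range, and the log2 fold change was 0.07 (SE 0.0902, 95% interval -0.13 to 0.27). Its near copy Abcb1b, with which reads could be shared, had 69, 72 and 105 counts in morphine libraries, against 72, 82 and 82 counts in saline libraries.

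The other 4 transporters were as even. Abcg2, the efflux pump BCRP, varied least of all 34 genes, with its highest FPKM 1.09 times its lowest. Its level was 23.2, 23.4 and 22.1 normalised CPM in morphine libraries, against 21.7, 23.1 and 21.8 normalised CPM in saline libraries. Abcg2 had a log2 fold change of 0.05 (SE 0.0789). Slco1a4 and Slco1c1, organic anion transporters of which Slco1c1 carries thyroxine, lie 235.3 kb apart on chromosome 6 and had log2 fold changes of 0.08 (SE 0.0857) and 0.02 (SE 0.0849). Without morphine replicate 2 these values were -0.013 and -0.038. Slco1c1 was also negative without morphine replicate 3 (-0.016), without saline replicate 1 (-0.028) and on the log2(FPKM + 0.1) scale (-0.0061). Mfsd2a, which carries lysophospholipids of docosahexaenoic acid and restrains transcytosis, had a log2 fold change of 0.10 (SE 0.107), and of 0.031 without morphine replicate 2.

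Of the 6 surface, membrane and secreted endothelial genes, 4 had positive log2 fold changes, with a median of 0.08, and 2 without morphine replicate 2, with a median of -0.022. Ly6c1 lies 46.0 kb from Ly6a on chromosome 15 and encodes a related GPI-anchored protein. It stood at 9.29, 13.3 and 9.48 normalised CPM in morphine libraries, against 9.49, 8.86 and 10.2 normalised CPM in saline libraries. Morphine replicate 2 was the highest and the other 5 libraries lay together, as for Tek. Ly6c1 had a log2 fold change of 0.17 (SE 0.151) and -0.02 without morphine replicate 2. Its near copy Ly6c2 had 2, 0 and 0 counts in morphine libraries, against 1, 0 and 0 counts in saline libraries.

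Vwf, which encodes the clotting factor von Willebrand factor of larger vessels, had the widest spread among the 25 genes counted at least 100 times in each library, with its highest FPKM 1.95 times its lowest. It stood at 23.6, 23.7 and 22.2 normalised CPM in morphine libraries, against 27.2, 14.2 and 21.4 normalised CPM in saline libraries. Both the highest and the lowest library were saline, with replicate 1 the highest and replicate 2 the lowest. The log2 fold change was 0.14 (SE 0.184, 95% interval -0.27 to 0.55). Without saline replicate 1 it was 0.385 with an unadjusted p of 0.0043 and an adjusted p of 0.15 in edgeR's test (0.15 to 0.98 over the alternatives run), and without saline replicate 2 it was -0.07. Itm2a, a membrane protein of brain endothelium, was also highest in saline replicate 1, and its log2 fold change was -0.07 (SE 0.0992) with that library and 0.039 without it. Egfl7, a secreted endothelial protein, had one of -0.02 (SE 0.127) and Emcn one of 0.01 (SE 0.265), with values of 0.068 for Egfl7 without morphine replicate 1 and -0.068 for Emcn without saline replicate 1.

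The 3 endothelial transcription factors had positive log2 fold changes and 0 of 3 passed the test. Without morphine replicate 1, morphine replicate 2 or saline replicate 3 the positive count was 2 of 3. Sox17, which specifies arterial endothelium, stood at 3.71, 5.79 and 3.12 normalised CPM in morphine libraries, against 3.84, 3.11 and 3.52 normalised CPM in saline libraries. Morphine replicate 2 was again the only library apart from the others. Its log2 fold change was 0.26 (SE 0.236) and -0.04 without morphine replicate 2. Sox18, a relative of Sox17 in vessel development, had a log2 fold change of 0.03 (SE 0.25), and of 0.17 without saline replicate 1 and -0.13 without saline replicate 3. Erg, an ETS factor of endothelial identity, had one of 0.07 (SE 0.172).

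Of the 7 pericyte genes 2 had positive log2 fold changes (Rgs5 and Higd1b), with a median of -0.04, and 0 of 7 passed the adjusted test. Without saline replicate 1, saline replicate 2 or morphine replicate 1 the positive count was 4 of 7, and the median without saline replicate 1 was 0.034. Pdgfrb, which encodes the receptor through which pericytes are recruited, stood at 22.3, 25.7 and 22.2 normalised CPM in morphine libraries, against 24.1, 25.8 and 23.0 normalised CPM in saline libraries. The groups overlapped, with a log2 fold change of -0.05 (SE 0.0898, 95% interval -0.25 to 0.15). Vtn, which encodes the matrix protein vitronectin, stood at 29.5, 26.0 and 25.5 normalised CPM in morphine libraries, against 36.0, 27.6 and 25.03 normalised CPM in saline libraries. Saline replicate 1 was the highest library for Vtn, and its log2 fold change was -0.13 (SE 0.128) with that library and 0.037 without it.

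Anpep, which encodes the surface peptidase CD13, had the most negative value of the 34 genes. It stood at 2.71, 2.37 and 2.16 normalised CPM in morphine libraries, against 4.49, 2.498 and 2.81 normalised CPM in saline libraries. Saline replicate 1 was far above the other 5 libraries, and saline replicate 2 lay within the morphine range. The log2 fold change was -0.44 (SE 0.25, 95% interval -1.001 to 0.11, unadjusted p = 0.11 in edgeR's test). Without saline replicate 1 it was -0.14, and without saline replicate 2 it was -0.61 with an unadjusted p of 0.042. Fibroblasts around vessels can also express this peptidase. The summed FPKM of 12 vascular and meningeal fibroblast markers was 144, 116 and 92.1 in morphine libraries, against 150, 100 and 99.8 in saline libraries, and its part in the values of Anpep was not tested. Notch3, a mural Notch receptor, had a log2 fold change of -0.02 (SE 0.107), and of 0.034 without saline replicate 1. Abcc9, the SUR2 subunit of a potassium channel, had one of -0.04 (SE 0.125), and of 0.085 without saline replicate 2. Higd1b, a HIG1-domain protein enriched in pericytes, had 12 to 21 counts and a log2 fold change of 0.25 with a wide 95% interval of -0.45 to 0.95, and a value of 0.36 without saline replicate 1.

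The 3 smooth muscle genes had few counts and wide intervals. Tagln, which encodes the actin-binding protein transgelin, had 22, 35 and 42 counts in morphine libraries, against 39, 22 and 10 counts in saline libraries. On the normalised CPM scale these are 1.22, 1.93 and 1.82 in morphine libraries, against 1.68, 1.04 and 0.511 in saline libraries. Saline replicate 3 was the lowest, and saline replicate 1 lay within the morphine range. The log2 fold change was 0.60 (SE 0.383, 95% interval -0.25 to 1.45), the most positive of the 34 genes. Without saline replicate 1 it was 1.08 with an unadjusted p of 0.0071 and an adjusted p of 0.19 in edgeR's test (0.19 to 0.98 over the alternatives run), and without saline replicate 3 it was 0.29. An antisense gene, Gm48529, shares 1241 exonic bases with Tagln and reached 64 counts in some library. No source used here gives the strand setting of the counting, so reads of this pair cannot be told apart here.

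The groups also overlapped for Acta2 and Myh11. Acta2, smooth muscle actin, stood at 2.32, 3.64 and 2.81 normalised CPM in morphine libraries, against 3.28, 2.83 and 1.94 normalised CPM in saline libraries, with a log2 fold change of 0.12 (SE 0.249). Without saline replicate 1 the value of Acta2 was 0.29, and without morphine replicate 2 it was -0.064. Myh11, smooth muscle myosin, stood at 3.87, 4.30 and 2.68 normalised CPM in morphine libraries, against 4.31, 4.62 and 3.32 normalised CPM in saline libraries, with a log2 fold change of -0.19 (SE 0.217). Without morphine replicate 3 the value of Myh11 was -0.0016, and without morphine replicate 2 it was -0.33. Saline replicate 3 was the lowest of the 6 libraries for Acta2, and morphine replicate 3 for Myh11.

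Summed over the genes, the levels were as close. The summed FPKM of the 34 genes was 158, 175 and 160 in morphine libraries, against 170, 158 and 154 in saline libraries. The means were 164.2 ± 9.01 FPKM in morphine and 160.6 ± 8.45 FPKM in saline libraries (SD, n = 3 each), a ratio of 1.02, and the groups overlapped. The 24 endothelial genes summed to 111, 125 and 114 FPKM in morphine libraries, against 118, 110 and 111 FPKM in saline libraries. The 10 mural genes summed to 47.5, 49.9 and 45.7 FPKM in morphine libraries, against 52.3, 47.6 and 43.0 FPKM in saline libraries. All 34 genes together took 0.0652%, 0.0724% and 0.0657% of the counts in morphine libraries, against 0.0683%, 0.0653% and 0.0635% in saline libraries.

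Single libraries stood apart more than the groups did. Morphine replicate 2 was the highest of the 6 libraries for 17 of the 34 genes and the lowest for 0. Saline replicate 3 was the lowest for 15 genes and the highest for 0. The median relative level of the endothelial genes (log2 normalised CPM in a library minus the mean of the 6) was 0.01, 0.12 and -0.01 in morphine libraries, against 0.00, -0.04 and -0.08 in saline libraries. That of the mural genes was -0.04, 0.11 and -0.03 in morphine libraries, against 0.14, 0.01 and -0.17 in saline libraries. The oligodendrocyte list moved along the same libraries: the median relative level of 10 oligodendrocyte markers was -0.01, 0.25 and -0.08 in morphine libraries, against 0.08, -0.05 and -0.24 in saline libraries, and its part in the vascular values was not tested. Not every other list did so. In morphine replicate 2 the median was -0.04 for neuron, -0.02 for astrocyte and -0.05 for microglia markers, and 0.13 for perivascular macrophage markers.

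**Figure D3:**
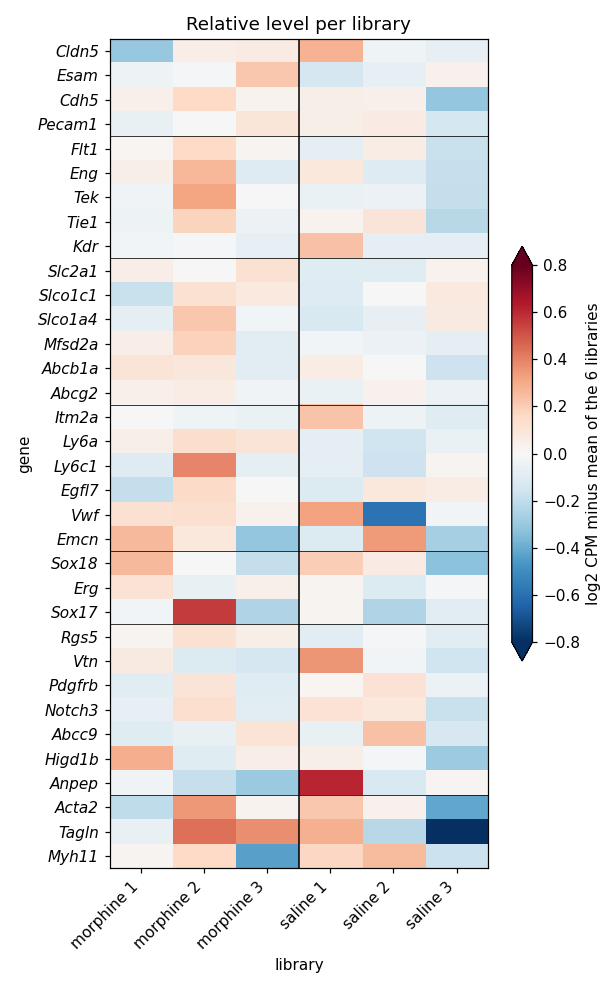
Relative level (log2 normalised CPM minus the mean of the 6 libraries, colour scale) of the 34 vascular genes (down the page, grouped by role) in 3 morphine and 3 saline libraries (across). Morphine replicate 2 is the highest library for 17 genes and saline replicate 3 the lowest for 15.

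**Figure D4:**
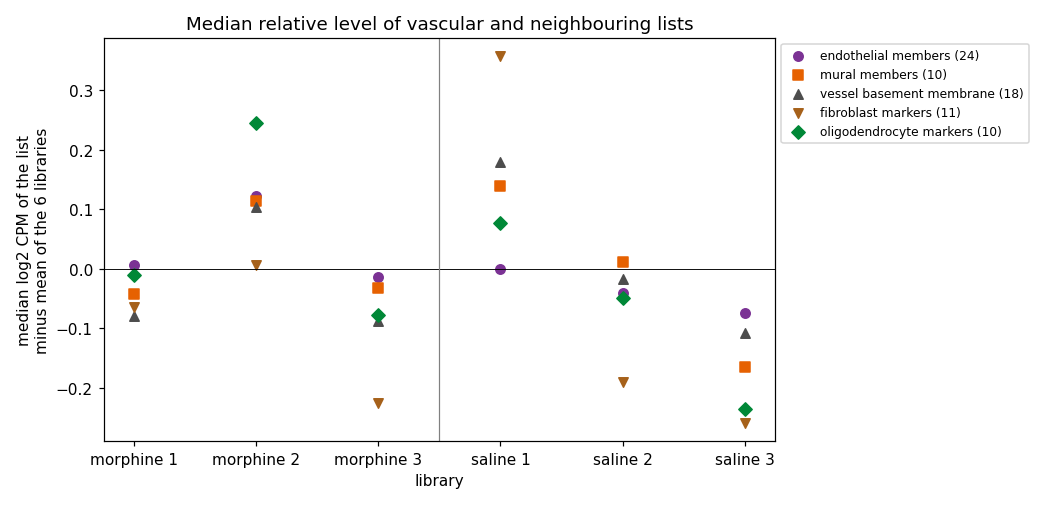
Median relative level (log2, vertical axis) of the endothelial, mural, basement membrane, fibroblast and oligodendrocyte lists in each morphine and saline library. The endothelial median is highest in morphine replicate 2, at 0.12, and the mural median in saline replicate 1, at 0.14.

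Deviations from the group means were compared between genes over the 6 libraries. The median Pearson correlation was 0.21 over 276 pairs of endothelial genes, 0.35 over 45 pairs of mural genes and 0.30 over 240 pairs of an endothelial with a mural gene. All pairs share the same 6 libraries, with their depth and tissue content, and these values are a description.

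Among 160 further vascular genes in 9 lists, 150 were tested, 7 were higher and 4 lower in morphine at an unadjusted p under 0.05, and 0 passed an adjusted p of 0.05 in edgeR's test. The higher genes were 4.67% of those tested, beside 2.77% of all genes, and the lower genes 2.67%, beside 4.96% of all genes. DESeq2 gave 3 higher and 2 lower by unadjusted p, beside 974 of all 18970 genes tested in either direction, and 0 by adjusted p. Leaving out saline replicate 1 gave 8 higher and 3 lower, and leaving out saline replicate 3 gave 2 higher and 7 lower. Without morphine replicate 1 there were 2 higher and 3 lower, and without morphine replicate 2 there were 3 higher and 5 lower. The shares of all genes in these fits are not given, so these counts are a description. With all libraries 80 of the 150 genes had a positive log2 fold change, with a median of 0.01. VEGF and angiopoietin signalling held 0 higher and 0 lower of 17 tested, other junction genes 0 and 0 of 13, and basement membrane genes 0 and 0 of 18. Norrin and Wnt barrier signalling held 1 higher and 2 lower of 14, and Notch, TGF-beta and PDGF signalling 1 higher and 1 lower of 23. Other barrier transport held 2 higher and 0 lower of 20, vascular tone 1 higher and 0 lower of 16, other mural genes 1 higher and 1 lower of 13, and arterial and venous genes 1 higher and 0 lower of 16.

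The genes behind these counts had adjusted p-values of 0.61 to 0.64 in edgeR's quasi-likelihood test. For Lrp6, Wnt7a, Jag1, Acvrl1, Slc7a5 and S1pr1 the unadjusted p without saline replicate 1 was 0.065 to 0.15. In DESeq2 the unadjusted p was under 0.05 for Abcc4, Gper1, Jag1 and Wnt7a, and 0.064 to 0.12 for the other named genes, Gkn3 among them. Gkn3, a gene of arterial endothelium in mouse brain, stood at 1.16, 1.54 and 1.04 normalised CPM in morphine libraries, against 0.819, 0.660 and 0.562 normalised CPM in saline libraries, with a log2 fold change of 0.85 (SE 0.308). The groups did not overlap for Gkn3, at 11 to 28 counts a library. Gper1, a G protein-coupled oestrogen receptor, stood at 3.43, 2.70 and 2.60 normalised CPM in morphine libraries, against 1.29, 2.12 and 1.84 normalised CPM in saline libraries, with a log2 fold change of 0.73 (SE 0.241). For Gper1, too, every morphine library lay above every saline library. Of the 150 genes tested in these lists, 10 lay wholly above in this way, beside 5.98% of all genes tested. Another 7 lay wholly below, beside 7.32%. Abcc4, an efflux transporter of organic anions, had a log2 fold change of 0.30 (SE 0.117), and Acvrl1, the endothelial receptor ALK1, one of 0.28 (SE 0.119). Values nearer 0 were those of Slc7a5, the large neutral amino acid transporter, at 0.13 (SE 0.057), S1pr1, a sphingosine-1-phosphate receptor, at 0.12 (SE 0.0509), and Tnfrsf19, TROY of the TNF receptor family, at 0.12 (SE 0.0521).

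On the negative side, Jag1, a Notch ligand, stood at 7.08, 7.06 and 7.70 normalised CPM in morphine libraries, against 13.5, 8.63 and 8.99 normalised CPM in saline libraries. Saline replicate 1 was the highest by far, and the other saline libraries also lay above all morphine libraries. Jag1 had a log2 fold change of -0.51 (SE 0.174), and of -0.27 without saline replicate 1. Wnt7a, a ligand that drives barrier formation, stood at 5.53, 7.28 and 8.92 normalised CPM in morphine libraries, against 14.4, 9.62 and 7.76 normalised CPM in saline libraries. Its groups overlapped, again with saline replicate 1 the highest, and the log2 fold change was -0.55 (SE 0.233), against -0.25 without that library. Lrp6, a Wnt co-receptor, had a log2 fold change of -0.12 (SE 0.0482), and Cspg4, the NG2 proteoglycan of pericytes and of oligodendrocyte precursors, one of -0.19 (SE 0.0733).

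Marker lists of other cells were read beside the vascular genes. The median log2 fold change was 0.08 over 10 neuron markers, 0.07 over 10 astrocyte markers, 0.13 over 10 oligodendrocyte markers and 0.04 over 10 microglia markers. Positive values numbered 8, 6, 10 and 7 of 10 in these lists, in that order. The median was -0.05 over 10 oligodendrocyte precursor markers, of which 6 had negative values. At an unadjusted p under 0.05, 1 of these, Cspg4, was lower, beside 4.96% of all genes. In the astrocyte and oligodendrocyte lists 1 gene each was higher, beside 2.77%. The median relative level of the precursor markers was -0.06, -0.08 and -0.04 in morphine libraries, against 0.22, -0.07 and -0.09 in saline libraries, with saline replicate 1 the highest. Medians and calls of the marker lists without that library are not given. Perivascular macrophage markers had a median log2 fold change of -0.17 over 6 tested, and fibroblast markers 0.03 over 11 tested. Of the choroid plexus and ependyma markers, Folr1, Kcne2, Clic6, Otx2 and Ccdc153 were at 0 in some library, and 3 of 10 were tested. The summed FPKM of the red cell markers was 53.2, 62.5 and 111 in morphine libraries, against 94.1, 55.6 and 87.5 in saline libraries. These groups overlapped, and the part of red cells in the vascular values was not tested. Of 12 nuclear noncoding RNAs, a list that moves with RNA quality and nuclear content, 11 had negative values, with a median of -0.11. The 1 with a positive value was higher at an unadjusted p of 0.040 in edgeR's test, and 0 were lower at an unadjusted p under 0.05. The summed FPKM of the 12 RNAs was 1815, 2329 and 1755 in morphine libraries, against 1998, 2337 and 2362 in saline libraries. The groups overlapped here as well, and the part of this list in the vascular values was not tested.

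The annotated exons of 8 of the 34 genes share bases with other genes. These are Slc2a1, Abcb1a, Eng, Egfl7, Notch3, Abcc9, Sox17 and Tagln. Egfl7, for example, holds the microRNA genes Mir126a and Mir126b, and Sox17 shares 804 bases with the transcript Gm37587 on the opposite strand. The largest count of a partner in any library was 632, for Pcsk7, which shares 108 bases with Tagln.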

How the data were processed

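RNA of the mPFC was sequenced from 3 morphine and 3 saline samples, and groups and replicate numbers were taken from the sample labels. Whether each sample was 1 mouse is not stated in the paper or labels, so p-values cover only the spread between the samples, which may be technical. The authors deposited whole-number counts per gene, which are not normalized, and FPKM values, which equal those counts divided by a gene length and a library factor (checked on the 13342 genes whose count was 50 or more throughout). Per the submitters' processing notes the build was mm10, with HISAT2 2.1.0 and StringTie 1.3.3, HTSeq 0.11.2, cutadapt 1.9.3, limma 3.40.6, DESeq 1.8.3 and DESeq2 1.26.0, each without a role. How strand was treated in counting is not given there. Library depth was 17984153 to 23529592 counts.

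Genes reaching 10 counts in 3 or more libraries were scaled by TMM and tested, two-sided, with the quasi-likelihood test of edgeR 4.0.16 (R 4.3.3), with Benjamini-Hochberg adjustment over all 18970. The standard error and the 95% interval come from that test. The fit was tested on simulated data. Alternatives were DESeq2 1.42.0, other scaling and filters, limma 3.58.1 on log2(FPKM + 0.1) and log2(FPKM + 1), the replicate number as a block and leaving out each library. Every one of the 34 genes is named. From the other vascular lists, up to 4 genes per list of lowest unadjusted p under 0.05 are named, and marker lists are given as counts, medians and sums. The 34 genes and all lists were chosen with earlier results of these data known. Gene coordinates are those of GENCODE (GRCm38), and promoter windows from RefSeq (GRCm38.p6). No sample was left out.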

Additional observations from a re-analysis of the deposited data

How the results depend on the processing

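With 3 libraries a group, 95% intervals lay within 1.5-fold either way for 26 of the 34 genes, and 6 genes had fewer than 50 counts in some library, so small differences could not be resolved there. The number of genes at an adjusted p under 0.05, 0 in edgeR, was 16 in DESeq2, 279 with no filter on low counts, and 0 to 186 with 1 library left out. The cause was not tested. The number of the 34 genes at an adjusted p under 0.05 was 0 under every alternative run. Those higher at an unadjusted p under 0.05, 1 in edgeR, were 0 in DESeq2, 0 with no filter and 0 to 2 with 1 library left out. Those lower were 0, and 0 to 1 with 1 library left out. The shares of all genes by unadjusted p are not given for the fits with no filter, with the replicate block or with 1 library left out. Those with every morphine library above every saline library, 3, were 6 without saline replicate 1. Endothelial genes with a positive log2 fold change numbered 14 to 21 and mural genes 3 to 6 with 1 library left out, with medians of 0.03 to 0.12 and -0.10 to 0.05.

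Same-numbered samples did not deviate together (r of 0.019, 0.010 and -0.032), so the replicate numbers were not taken as pairs. With the replicate block 0 genes passed an adjusted p of 0.05, 1 of the 34 genes was higher at an unadjusted p under 0.05 (Rgs5, with a log2 fold change of 0.13), and the medians were 0.08 for endothelial and -0.02 for mural genes.

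With all libraries kept, 3 of 306 values of single genes turned sign, all of Slco1c1: -0.0061 on log2(FPKM + 0.1), with and without a filter, and -0.0052 on log2(FPKM + 1). With 1 library left out, 32 of 204 turned, in 17 genes. Their log2 fold changes ranged over -0.15 to 0.25 for Emcn, -0.11 to 0.068 for Egfl7, -0.13 to 0.17 for Sox18, -0.11 to 0.085 for Abcc9, -0.10 to 0.034 for Notch3, -0.031 to 0.13 for Tie1, -0.013 to 0.14 for Slco1a4, -0.038 to 0.10 for Slco1c1, -0.018 to 0.26 for Ly6c1, -0.040 to 0.44 for Sox17, -0.064 to 0.29 for Acta2, -0.040 to 0.060 for Pecam1, -0.19 to 0.00081 for Cldn5, -0.13 to 0.042 for Kdr, -0.13 to 0.039 for Itm2a, -0.23 to 0.037 for Vtn and -0.071 to 0.385 for Vwf. Of the 11 named genes outside the 34, none turned sign under the alternatives run. These 11 were chosen after seeing the data, for an unadjusted p under 0.05 in these same libraries. That choice favours a steady sign, so they cannot be set against the 34 genes in this. In edgeR with no filter 6 of the other vascular genes were higher and 8 lower, and with the replicate block 5 and 2. In limma 3 to 4 were higher and 2 lower. In some alternative 7 of the 34 genes had an unadjusted p under 0.05. The shares of all genes by unadjusted p in these fits are not given, so these counts are a description.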
